A study of Mus musculus with 12 samples.

Results

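Serine, glycine and proline synthesis in aortic smooth muscle cells (SMCs) was followed through 10 genes: Phgdh, Psat1, Psph, Shmt2, Mthfd2, Aldh18a1, Pycr1, Asns, Slc7a5 and Atf4. They were chosen by name, with earlier results of these data known, and the rule itself uses no measured value. All 10 had a row among the 52636 genes of the count table, and all 10 were among the 22320 genes that passed the filter on low counts. SMCs were sorted from the thoracic aorta of male C57BL/6J mice aged 12 weeks, from 3 GFPiSMC and 3 Tgfbr1/2iSMCKO animals, and the ascending aorta with the arch was kept apart from the descending aorta of each animal. That gave 12 libraries in 4 groups of 3. Both genotypes carried Myh11-CreERT2, a tamoxifen-activated Cre driven by the promoter of the SMC gene Myh11, and the mT/mG reporter, which turns recombined cells green. Tgfbr1/2iSMCKO mice also had floxed Tgfbr1 and Tgfbr2 alleles, the genes of the type I and type II transforming growth factor-β (TGF-β) receptors, and GFPiSMC mice did not, so the effect of the line and of the deletion cannot be told apart. Every animal received tamoxifen on 5 days. The labels name 1 mg per day at 4 weeks or 2 mg per day at 11 weeks of age and do not assign these to libraries. The study describes the profiling of sorted SMCs as done in mice aged 12 weeks, a week after the deletion, which matches its 11-week schedule. It describes the 1 mg dose as that of a subgroup induced at 4 weeks.

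Serine is made from a glycolytic intermediate by PHGDH, PSAT1 and PSPH in turn, and SHMT2 then converts serine to glycine in mitochondria, passing on a carbon unit that MTHFD2 oxidises. ALDH18A1 starts proline synthesis from glutamate and PYCR1 completes it. Collagens and elastin are rich in glycine and proline, and the transcription factor ATF4, whose translation rises when eIF2 is phosphorylated in the integrated stress response, is known to drive many genes of amino acid synthesis, import and tRNA charging. ASNS makes asparagine, and SLC7A5 is the light chain of a transporter for large neutral amino acids.

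Library totals ranged from 20467027 to 31392396 counts, and between 9208 and 20000 cells were sorted per library. Levels are given in CPM, a gene's count scaled by the library total after TMM correction for composition. The summed level of 5 SMC markers was 39256 to 46612 CPM in GFPiSMC and 32636 to 42179.7 CPM in Tgfbr1/2iSMCKO libraries. Markers of other cell types were low, with 7 fibroblast markers summing to 45.1 to 97.2 CPM in GFPiSMC and 17.7 to 125.0 CPM in Tgfbr1/2iSMCKO libraries, 7 endothelial markers to 82.8 to 110.1 and 62.5 to 112.5 CPM, and 7 macrophage markers to 6.73 to 19.7 and 12.3 to 22.5 CPM. Of these markers, Adgre1 of the macrophage list was at 0 in all 3 Tgfbr1/2iSMCKO descending libraries. Tgfbr1 was at 196.0 to 292.4 CPM in GFPiSMC and 197.6 to 295.3 CPM in Tgfbr1/2iSMCKO libraries, and Tgfbr2 at 88.9 to 127.7 and 68.2 to 102.0 CPM. Neither receptor gene passed the test, with adjusted p = 0.790 and 0.233 in edgeR's quasi-likelihood test, and a count over the whole gene does not single out the floxed exons, so it does not check the deletion. In bulk samples, fewer cells of a type and less RNA per cell cannot be told apart.

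Over both segments, Pycr1 and Atf4 fell in Tgfbr1/2iSMCKO SMCs and none of the other 8 genes passed the test in either direction. Pycr1 fell by 1.41 on the log2 scale and Atf4 by 1.05, whereas serine, glycine and one-carbon enzymes had estimates between -0.35 and 0.35 with standard errors of 0.17 to 0.51. In edgeR's quasi-likelihood test with segment as a term and Benjamini-Hochberg adjustment over all genes tested, 2 of 10 members were called lower at an adjusted p under 0.05, beside 721 of 22320 genes (3.23%), and 0 were called higher, beside 402 genes (1.80%). DESeq2 and limma-voom also called 2 lower and 0 higher, and 3 members had an unadjusted p under 0.05. The fit counts the 2 libraries of an animal as separate samples, and with counts summed per animal the adjusted p was 0.0309 for Pycr1 and 0.0374 for Atf4. Both called genes also passed a 2-fold change, as did 366 genes called lower (1.64%). The median log2 fold change of the 10 members was -0.19, and that of all genes tested was 0.04.

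**Figure D1:**
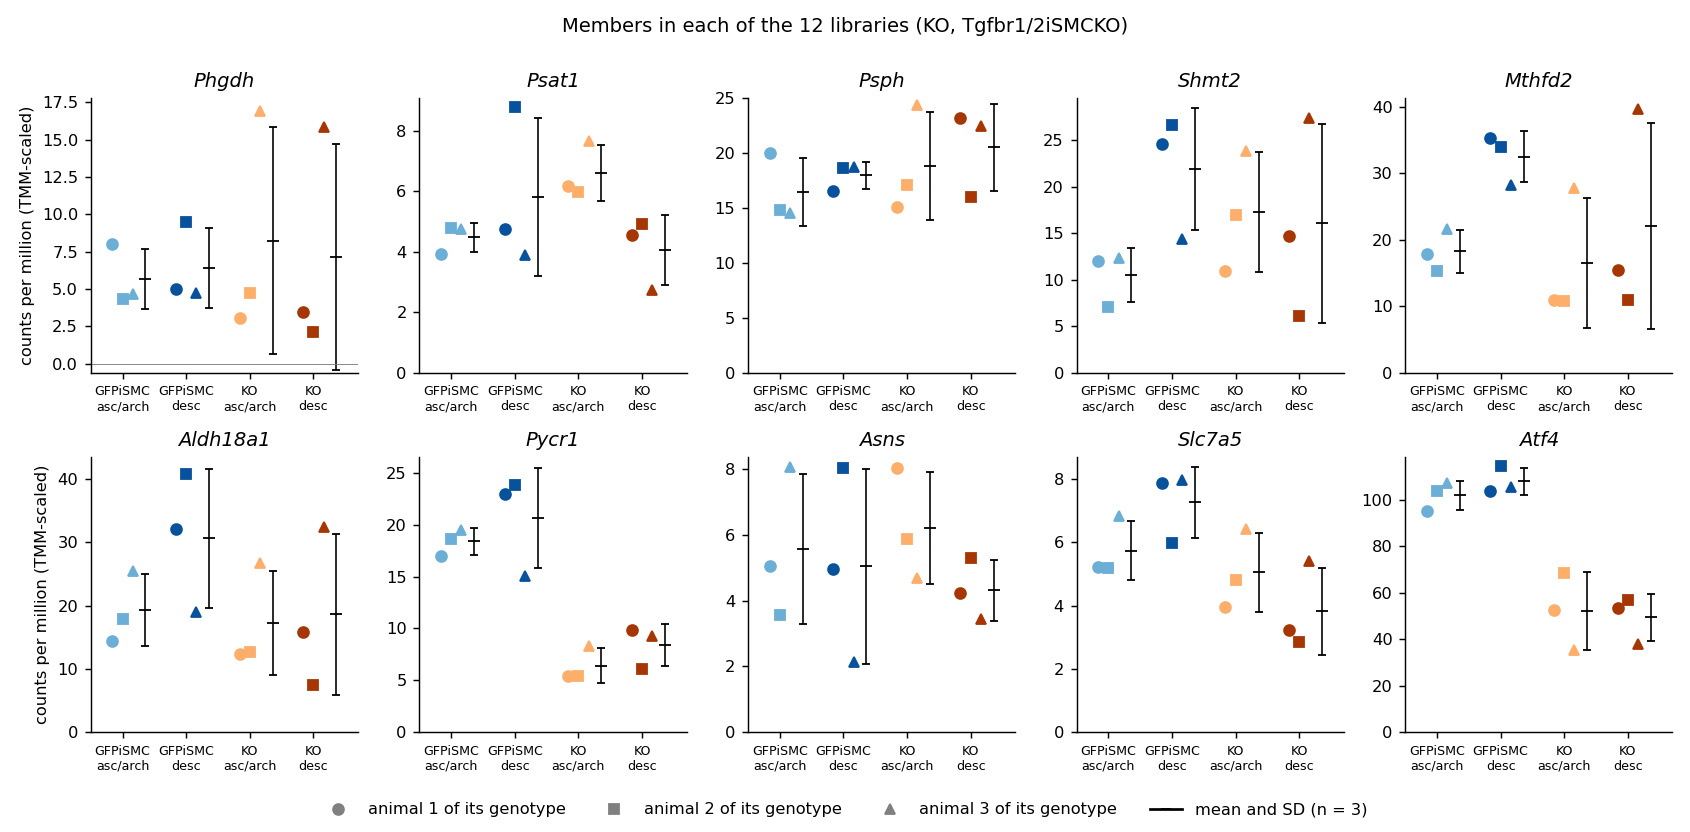
Each panel plots 1 gene in CPM (TMM-scaled, linear axis) in the 12 libraries, with a symbol for each animal, and a bar for the mean and SD of each group of 3. Pycr1 and Atf4 are lower in all 6 Tgfbr1/2iSMCKO (KO) libraries than in all 6 GFPiSMC libraries, while the other 8 genes overlap between genotypes and Phgdh is highest in both libraries of Tgfbr1/2iSMCKO animal 3.

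Atf4 (chr15:80255184-80257541, plus strand, GRCm38) was the most abundant member. In GFPiSMC it was at 95.1, 103.9 and 107.2 CPM in the ascending/arch libraries of animals 1 to 3 and at 103.8, 114.5 and 105.8 CPM in the descending libraries. In Tgfbr1/2iSMCKO it was at 52.5, 68.7 and 35.3 CPM in the ascending/arch and at 53.6, 56.9 and 37.8 CPM in the descending libraries. Every Tgfbr1/2iSMCKO library lay below every GFPiSMC library, which held in this direction for 644 of 22320 genes (2.89%), and both libraries of Tgfbr1/2iSMCKO animal 3 were the lowest. The mean was 105.0 ± 6.26 CPM in GFPiSMC and 50.8 ± 12.5 CPM in Tgfbr1/2iSMCKO (SD, 6 libraries from 3 animals each). The log2 fold change was -1.05 (SE 0.16, edgeR adjusted p = 0.00129), a level of 0.484 of that in GFPiSMC, and over 18 other settings it lay between -1.23 and -0.87 with adjusted p from 4.34e-08 to 0.0374.

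Pycr1 (chr11:120635712-120643769, minus strand), which encodes the mitochondrial reductase of the last step of proline synthesis, was the other called gene. GFPiSMC ascending/arch libraries held 17.0, 18.7 and 19.5 CPM and descending libraries 23.0, 23.8 and 15.1 CPM. Tgfbr1/2iSMCKO ascending/arch libraries held 5.46, 5.43 and 8.34 CPM and descending libraries 9.81, 6.10 and 9.28 CPM. The genotypes did not overlap, the lowest GFPiSMC library being descending animal 3 and the highest Tgfbr1/2iSMCKO library descending animal 1. The mean was 19.5 ± 3.40 CPM against 7.40 ± 1.98 CPM (SD, 6 libraries from 3 animals each). The log2 fold change was -1.41 (SE 0.20, edgeR adjusted p = 0.000725), and it lay between -1.57 and -1.26 over 18 other settings, with adjusted p from 4.03e-11 to 0.0309.

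ATF4 binds with C/EBP proteins to a composite element whose core was searched here as TGATGNAA, or TTNCATCA on the opposite strand, in RefSeq promoter windows (GRCm38.p6) of 250 bases before and 50 after each start. Windows were held for 9 of the 10 members, not for Slc7a5, and Pycr1 and Asns were the 2 with a match. Of all 32851 windows, 3.97% held it, and of the 13882 tested genes with a window, 3.23%. The bases upstream of the start of both genes are shown because they are the members with a match, with the matched 8 bases in capitals, followed by those of Atf4 itself, which holds none:

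Pycr1 (chr11:120643749-120643998, minus strand): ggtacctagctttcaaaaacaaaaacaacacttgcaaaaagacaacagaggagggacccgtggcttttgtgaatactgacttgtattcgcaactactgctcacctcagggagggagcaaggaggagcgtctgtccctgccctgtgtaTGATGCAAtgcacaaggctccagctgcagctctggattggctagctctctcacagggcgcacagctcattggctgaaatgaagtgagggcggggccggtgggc

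Asns (chr6:7693210-7693459, minus strand): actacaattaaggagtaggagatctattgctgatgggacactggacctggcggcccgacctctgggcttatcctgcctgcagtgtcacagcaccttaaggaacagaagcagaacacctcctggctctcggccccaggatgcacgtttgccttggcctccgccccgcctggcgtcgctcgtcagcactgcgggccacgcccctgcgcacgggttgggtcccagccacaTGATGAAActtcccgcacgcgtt

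Atf4 (chr15:80254934-80255183, plus strand): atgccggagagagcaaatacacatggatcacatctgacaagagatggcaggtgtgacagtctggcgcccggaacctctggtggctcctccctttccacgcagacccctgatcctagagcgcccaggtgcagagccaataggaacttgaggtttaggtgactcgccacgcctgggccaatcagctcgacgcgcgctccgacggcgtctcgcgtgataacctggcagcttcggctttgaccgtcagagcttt

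In Pycr1 the match began 103 bases before the start and in Asns 23 bases before it, so a match stood before a gene that fell and before a gene that was not called. A match is a description of these letters and not a measured site.

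Aldh18a1 (chr19:40550257-40588463, minus strand), which encodes the enzyme of the first steps from glutamate to proline, varied widely within groups. It was at 14.4, 17.9 and 25.5 CPM in GFPiSMC ascending/arch and at 32.1, 40.8 and 18.96 CPM in GFPiSMC descending libraries. In Tgfbr1/2iSMCKO it was at 12.3, 12.7 and 26.7 CPM in ascending/arch and at 15.9, 7.46 and 32.4 CPM in descending libraries. Animals 1 and 2 of Tgfbr1/2iSMCKO were below every GFPiSMC library of their segment, and animal 3 was above all 3 in the ascending/arch and within the GFPiSMC range in the descending aorta. Aldh18a1 differed by a log2 fold change of -0.44 (SE 0.35, 95% interval -1.12 to 0.24, edgeR adjusted p = 0.647), and without that animal it was -1.01 with adjusted p = 0.106.

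The first enzyme of serine synthesis, Phgdh (chr3:98313170-98339990, minus strand), had the largest standard error of the members. It was at 7.99, 4.36 and 4.67 CPM in GFPiSMC ascending/arch and at 5.03, 9.50 and 4.70 CPM in GFPiSMC descending libraries. In Tgfbr1/2iSMCKO it was at 3.05, 4.71 and 16.9 CPM in ascending/arch and at 3.48, 2.14 and 15.8 CPM in descending libraries. Animal 3 was above all other libraries in both segments, and animals 1 and 2 of that genotype, at 2.14 to 4.71 CPM, were at the low end or below the GFPiSMC range. The log2 fold change was 0.35 (SE 0.51, 95% interval -0.65 to 1.35, edgeR adjusted p = 0.845), and without animal 3 of Tgfbr1/2iSMCKO it was -0.88 with adjusted p = 0.205. Phgdh has 23 annotated copies elsewhere with at least 90% identity over at least 150 bases, of which 19 had rows, summing to 59 to 132 counts per library against 52 to 526 counts for Phgdh, so its reads may be split among them.

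Psat1 (chr19:15904678-15947337, minus strand), the aminotransferase that follows, was at 3.92, 4.77 and 4.75 CPM in GFPiSMC ascending/arch and at 6.18, 5.97 and 7.67 CPM in Tgfbr1/2iSMCKO ascending/arch libraries. In the descending aorta it was at 4.76, 8.80 and 3.90 CPM in GFPiSMC and at 4.56, 4.91 and 2.73 CPM in Tgfbr1/2iSMCKO libraries. The genotypes were thus separate, Tgfbr1/2iSMCKO being the higher, in the ascending/arch and overlapped in the descending aorta. For 3 against 3 libraries, full separation gives no smaller exact two-sided permutation p than 0.1. Here and for the other members, the share of all genes so separated was not counted. The log2 fold changes of 0.56 (SE 0.35, adjusted p = 0.628) and -0.52 (SE 0.36, adjusted p = 0.725) did not pass edgeR's test. Their difference was -1.08 (95% interval -2.06 to -0.09), with an unadjusted p of 0.0523 in edgeR's test of genotype by segment and an adjusted p of 1.00.

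Psph (chr5:129765558-129787449, minus strand), the phosphatase of the last step, ranged from 14.5 to 19.9 CPM in GFPiSMC and from 15.03 to 24.3 CPM in Tgfbr1/2iSMCKO libraries. Its log2 fold change was 0.19 (SE 0.17, 95% interval -0.14 to 0.53, edgeR adjusted p = 0.696). The opposite strand holds Cct6a, a chaperonin subunit gene, which overlaps Psph and had 4167 to 7120 counts per library against 351 to 754 for Psph. The sources used here do not say that counting used strand, so part of the Psph count may belong to Cct6a.

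Shmt2 (chr10:127517123-127522444, minus strand) was at 12.1, 7.11 and 12.4 CPM in GFPiSMC ascending/arch and at 24.6, 26.6 and 14.4 CPM in GFPiSMC descending libraries. In Tgfbr1/2iSMCKO it was at 11.0, 17.0 and 23.9 CPM in ascending/arch and at 14.7, 6.06 and 27.4 CPM in descending libraries. Every GFPiSMC descending library was above every GFPiSMC ascending/arch library (3 against 3), and no such order was seen in Tgfbr1/2iSMCKO. Between genotypes Shmt2 differed by a log2 fold change of 0.13 (SE 0.37, edgeR adjusted p = 0.927), and without Tgfbr1/2iSMCKO animal 3 it was -0.31.

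Mthfd2 (chr6:83305691-83325908, minus strand), the one-carbon enzyme of mitochondria, was at 17.9, 15.2 and 21.6 CPM in GFPiSMC ascending/arch and at 35.3, 34.0 and 28.2 CPM in GFPiSMC descending libraries. In Tgfbr1/2iSMCKO it was at 10.9, 10.7 and 27.7 CPM in ascending/arch and at 15.5, 10.9 and 39.7 CPM in descending libraries. Animals 1 and 2 of Tgfbr1/2iSMCKO were below every GFPiSMC library of their segment, and animal 3 was above all 3 in both segments. The log2 fold change was -0.35 (SE 0.32, edgeR adjusted p = 0.709). Without Tgfbr1/2iSMCKO animal 3 it was -1.03 and passed the test with adjusted p = 0.0114, so whether Mthfd2 was called depended on that animal.

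The asparagine synthetase gene Asns (chr6:7675169-7693254, minus strand) was at 2.13 to 8.06 CPM in GFPiSMC and at 3.44 to 8.03 CPM in Tgfbr1/2iSMCKO libraries, the lowest being GFPiSMC descending animal 3. Its log2 fold change was -0.03 (SE 0.32, 95% interval -0.65 to 0.59, edgeR adjusted p = 0.982). Slc7a5 (chr8:121881150-121907694, minus strand) was at 5.21, 5.18 and 6.82 CPM in GFPiSMC ascending/arch and at 7.86, 5.96 and 7.95 CPM in GFPiSMC descending libraries. In Tgfbr1/2iSMCKO it was at 3.95, 4.80 and 6.41 CPM in ascending/arch and at 3.23, 2.84 and 5.40 CPM in descending libraries. The genotypes did not overlap in the descending aorta (3 against 3 libraries), where the log2 fold change was -0.92 (SE 0.33). The test was not passed there (edgeR adjusted p = 0.273) or over both segments (-0.55, SE 0.25, unadjusted p = 0.0421, adjusted p = 0.281).

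**Figure D2:**
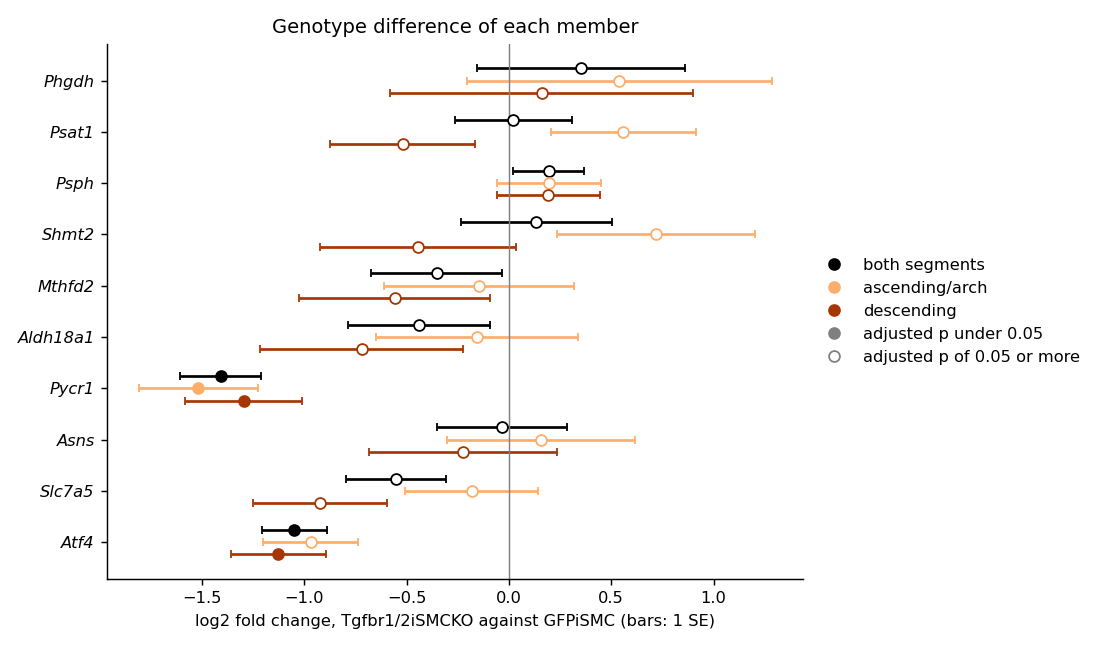
Log2 fold changes of Tgfbr1/2iSMCKO against GFPiSMC from edgeR for each member, with bars of 1 SE, over both segments and in each segment. Filled symbols passed an adjusted p under 0.05: Pycr1 in all 3 comparisons, and Atf4 over both segments and in the descending aorta.

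By segment, Pycr1 was the only member called in the ascending/arch, with a log2 fold change of -1.52 (SE 0.29, edgeR adjusted p = 0.0212), and Atf4 there had -0.97 (SE 0.23) with adjusted p = 0.0662. That made 1 of 10 members, beside 315 of 22320 genes (1.41%). In the descending aorta Atf4 (-1.13, SE 0.23, adjusted p = 0.0303) and Pycr1 (-1.30, SE 0.29, adjusted p = 0.0425) were called, 2 of 10 members beside 385 genes (1.72%). Calls in single segments mostly changed when 1 animal was left out, which leaves 2 libraries in a group and so weakens the test. In both segments 0 members were called without GFPiSMC animal 1, 2 or 3 or without Tgfbr1/2iSMCKO animal 1. Without Tgfbr1/2iSMCKO animal 2, Atf4 alone was called in each segment, and without animal 3 Pycr1 was called in the ascending/arch and Mthfd2 and Atf4 in the descending aorta. The genotype difference itself was not shown to differ between segments for any member, with 0 of 10 called by edgeR beside 0 of 22320 genes (0%), 0 members at an unadjusted p under 0.05, and 0 called by DESeq2. For Pycr1 the difference between segments was 0.22 (95% interval -0.56 to 1.01), and for Atf4 it was -0.16 (95% interval -0.80 to 0.48).

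Between segments of the same genotype no member was called. In GFPiSMC, 0 of 10 members passed, beside 84 of 22320 genes (0.376%), and 9 of 10 estimates were higher in the descending aorta. Shmt2, with a log2 difference of 1.06 (SE 0.48), was the 1 member at an unadjusted p under 0.05 (0.0492, edgeR adjusted p = 0.833), and Mthfd2, with 0.83 (SE 0.47), also had all descending above all ascending/arch libraries. In Tgfbr1/2iSMCKO, 0 of 10 members passed, beside 25 genes (0.112%), 0 had an unadjusted p under 0.05, and 4 of 10 estimates were higher in the descending aorta. Psat1 there had all descending below all ascending/arch libraries, with a log2 difference of -0.70 (SE 0.36, edgeR unadjusted p = 0.0716). DESeq2 called 0 members in both.

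Compared per length, as CPM divided by the exon length in kilobases (RPKM), Atf4 led in GFPiSMC at 44.5 ± 2.65 RPKM. It was followed by Mthfd2 at 7.28 ± 2.41, Aldh18a1 at 6.13 ± 2.46, Shmt2 at 5.21 ± 2.48, Pycr1 at 4.96 ± 0.863 and Psph at 3.97 ± 0.519 RPKM (SD, 6 libraries from 3 animals). From Mthfd2 to Pycr1 the neighbours in this order lay within their SD of each other. Phgdh, Asns, Slc7a5 and Psat1 were the lowest, with means from 2.43 down to 1.21 RPKM, and from Phgdh to Slc7a5 neighbours again lay within their SD of each other. In Tgfbr1/2iSMCKO Atf4 still led at 21.5 ± 5.28 RPKM, and Pycr1 moved from rank 5 to rank 8 at 1.88 ± 0.503 RPKM.

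Several members varied together across the 12 libraries. Phgdh, Shmt2, Mthfd2 and Aldh18a1 are described here as a set chosen after their values were seen. Pearson's r between the log2 CPM of any pair of these 4 genes was 0.71 to 0.90, where the median over all 45 pairs of members was 0.17. With group means removed it was 0.81 to 0.91, where the median over all pairs was 0.35. Other pairs were as close with group means removed, Aldh18a1 with Pycr1 (0.87) and Mthfd2 with Slc7a5 (0.86) among them, followed by Phgdh with Psph (0.78) and Shmt2 with Pycr1 (0.77). These r describe 12 libraries of which pairs share an animal. Shmt2 was at 23.9 to 27.4 CPM in the 4 libraries with 9208 to 12000 sorted cells, which are GFPiSMC descending animals 1 and 2 and both segments of Tgfbr1/2iSMCKO animal 3, and at 6.06 to 17.0 CPM in the other 8. Those 4 libraries also had the highest mean GC content of transcripts, weighted by counts, 48.0% to 48.3% against 47.1% to 47.8%, and the highest summed level of 20 cytosolic tRNA synthetase genes, 1659 to 1869 CPM against 1043 to 1490 CPM. Their mean transcript length, taken from the longest transcript of each gene and weighted by counts, was also the highest. It was 3687 to 3730 bases against 3483 to 3658 bases. Which of these properties the 4 genes follow cannot be told apart.

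Against the log2 number of sorted cells, Shmt2 had Pearson's r = -0.88 and Spearman's rho = -0.88 over the 12 libraries (permutation p = 0.00023 and 0.0004, or 0.0023 and 0.00395 with Benjamini-Hochberg adjustment over the 10 relations computed). Without GFPiSMC descending animal 2 (9208 cells) and GFPiSMC ascending/arch animal 2 (20000 cells, 1 of 3 libraries tied), the farthest from the median, r was -0.84, and within genotypes it was -0.90 in GFPiSMC and -0.93 in Tgfbr1/2iSMCKO. Phgdh (r = -0.76, rho = -0.87), Aldh18a1 (r = -0.76, rho = -0.73) and Mthfd2 (r = -0.75, rho = -0.69) had adjusted permutation p of 0.0153, 0.0153 and 0.0165 for r. Their r was -0.80, -0.74 and -0.72 without the same 2 libraries, and within each genotype it stayed between -0.94 and -0.65. Pycr1 (r = -0.43, adjusted permutation p = 0.234) and Atf4 (r = -0.07, adjusted permutation p = 0.831) did not pass, and since genotype separates both genes, their r within GFPiSMC and Tgfbr1/2iSMCKO is given too, -0.64 and -0.59 for Pycr1 and -0.26 and 0.63 for Atf4. With group means removed, r was -0.69 for Pycr1 and -0.68 for Psph, near that of Mthfd2 (-0.70) and Aldh18a1 (-0.71). For Shmt2 and Phgdh it was then -0.89 and -0.83. It was -0.43 for Slc7a5, -0.22 for Asns, -0.11 for Psat1 and 0.45 for Atf4. The 12 libraries come from 6 animals, so these p-values treat as separate what is in part shared. Of the 12695 genes averaging 50 counts or more per library, 2.24% had a lower r than Shmt2 and 10.9% a lower r than Phgdh, with a median of -0.18. With sorted cells as a term in the model, added after the data were seen, Pycr1 (-1.35, adjusted p = 0.000378) and Atf4 (-1.09, adjusted p = 0.000648) were called and the other 8 were not.

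**Figure D3:**
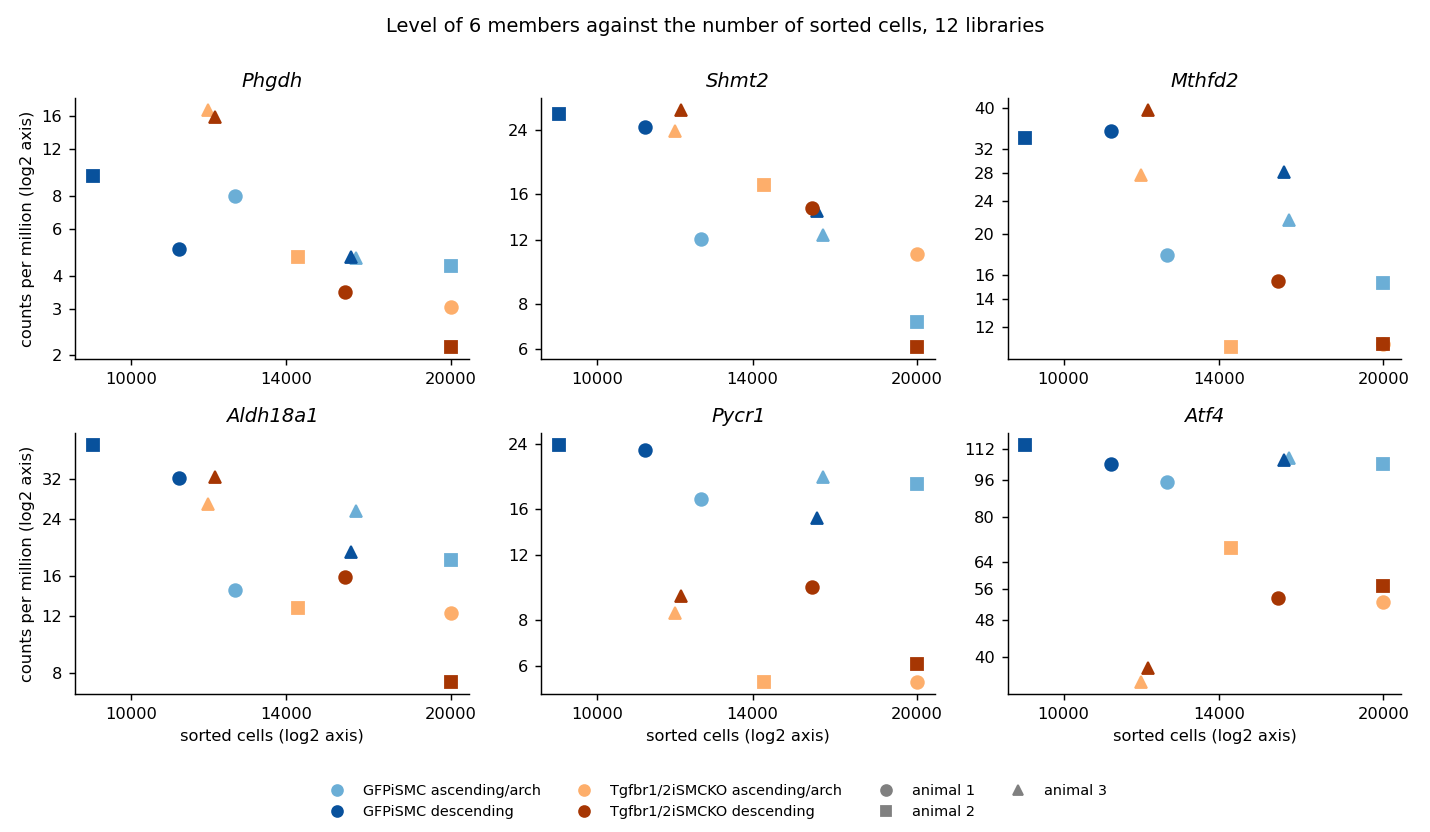
CPM (log2 axis) of 6 members against the number of sorted cells (log2 axis) in the 12 libraries, coloured by group with a symbol for each animal. Phgdh, Shmt2, Mthfd2 and Aldh18a1 decline with cell number over all 12 libraries (r = -0.75 to -0.88) and within each genotype (r = -0.65 to -0.94). Pycr1, with r = -0.43 over all 12 libraries, had r = -0.64 within GFPiSMC and -0.59 within Tgfbr1/2iSMCKO. Atf4 separates by genotype, with r = -0.07 over all 12 libraries.

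In both segments of Tgfbr1/2iSMCKO, Atf4 was lowest in animal 3, where Phgdh, Shmt2, Mthfd2, Aldh18a1 and Slc7a5 were highest and Asns lowest. In GFPiSMC descending libraries Atf4 was instead highest in animal 2. Phgdh, Psat1, Shmt2, Aldh18a1, Pycr1 and Asns were highest there too, but Psph, Mthfd2 and Slc7a5 were not. With group means removed and all 12 libraries pooled, the r of Atf4 with the other 9 members was -0.63 in the median. It ranged from -0.85 with Mthfd2 to 0.35 with Asns. Without removing group means, the highest r of Atf4 was 0.77, with Pycr1. The 5 genes most like the mean standardised level of the members, among 12685 others that averaged 50 counts or more, were Hdlbp (r = 0.97), Nudt18 (0.97), Rpn1 (0.97), Bop1 (0.96) and Wfdc1 (0.96) over the 12 libraries. None of these 5 passed the genotype test (edgeR adjusted p = 0.327 to 0.437).

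Around the 10 genes, other genes of the same pathways mostly did not pass, while 3 genes of the integrated stress response fell. Of 15 tested one-carbon and glycine genes, edgeR, DESeq2 and limma-voom called 0, with 3 at an unadjusted p under 0.05 in edgeR. Gcat (0.59, adjusted p = 0.147) and Mthfd1 (-0.51, adjusted p = 0.257) had the smallest p. Of 13 tested proline, ornithine and glutamine genes, edgeR called 0 lower and 1 higher, with 6 at an unadjusted p under 0.05, DESeq2 called 1 lower and 2 higher, and limma-voom called 0. The gene called by edgeR was Prodh, the dehydrogenase that starts proline breakdown, at 3.49 to 7.43 CPM in GFPiSMC and 4.49 to 33.7 CPM in Tgfbr1/2iSMCKO libraries (log2 fold change 1.49, SE 0.37, edgeR adjusted p = 0.0320). The genotypes overlapped for Prodh, and 10 of 18 other settings kept its call, which was lost without any 1 animal except Tgfbr1/2iSMCKO animal 2 (adjusted p = 0.0536 to 0.172), and by limma-voom (0.0798).

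Of 20 amino acid transporters, edgeR called 1 lower and 1 higher, DESeq2 2 lower and 0 higher, and limma-voom 1 lower and 0 higher. Slc7a1, which carries cationic amino acids, was at 23.5 to 39.3 CPM in GFPiSMC and 11.4 to 19.5 CPM in Tgfbr1/2iSMCKO libraries (-0.84, SE 0.19, edgeR adjusted p = 0.0172). The libraries did not overlap, and 13 of 18 other settings kept the call, which was lost without GFPiSMC animal 3 (adjusted p = 0.114) or Tgfbr1/2iSMCKO animal 1 (0.0844) or 3 (0.0630), with counts summed per animal (0.164) and with GC offsets (0.0687). Slc6a20a, an importer of proline and related imino acids, had 0 to 6 counts per GFPiSMC library and 7 to 36 per Tgfbr1/2iSMCKO library (edgeR adjusted p = 0.0400). No GFPiSMC library exceeded 0.22 CPM, so Slc6a20a passed the filter on low counts only through Tgfbr1/2iSMCKO libraries. A call in the higher direction was thus favoured in advance. DESeq2 gave Slc6a20a no adjusted p, and 6 of 15 other settings kept the call, which was lost without any 1 animal except Tgfbr1/2iSMCKO animal 3 (0.0802 to 0.170), and by limma-voom (0.253). Of 20 cytosolic tRNA synthetases, which load amino acids onto tRNA, 0 were called by edgeR, DESeq2 or limma-voom and 0 had an unadjusted p under 0.05. Wars (0.60) and Rars (-0.20) had the smallest p, with adjusted p = 0.433 for both.

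Of 17 tested integrated stress response genes other than the members, edgeR called 3 lower and 1 higher, beside 3.23% lower and 1.80% higher over all genes. DESeq2 called 4 lower and 1 higher, and limma-voom 3 lower and 0 higher. Their median log2 fold change was -0.48 against 0.04 over all genes. Nupr1, a stress-induced chromatin-associated protein, was at 1224 to 2061 CPM in GFPiSMC and 30.7 to 140.8 CPM in Tgfbr1/2iSMCKO libraries, with a log2 fold change of -4.13 (SE 0.28, edgeR adjusted p = 1.07e-06). Chac1, which degrades glutathione, was at 1.17 to 3.61 and 0.291 to 0.961 CPM (-2.02, SE 0.34, adjusted p = 0.00282). Herpud1, of endoplasmic reticulum-associated degradation, was at 161.4 to 246.7 and 107.7 to 158.9 CPM (-0.66, SE 0.13, adjusted p = 0.0101). None of these 3 overlapped between genotypes, as for Pycr1 and Atf4, and Herpud1 kept its call in 16 of 18 other settings, losing it without GFPiSMC animal 1 (adjusted p = 0.0680) and with counts summed per animal (0.0833). Cebpg, a C/EBP protein that dimerises with ATF4, was higher, at 5.57 to 30.98 against 10.5 to 48.4 CPM (1.73, SE 0.43, adjusted p = 0.0325). Its libraries overlapped, and 11 of 18 other settings kept its call, which was lost without GFPiSMC animal 1 or 2 or Tgfbr1/2iSMCKO animal 2 or 3 (adjusted p = 0.0825 to 0.165), by limma-voom (0.0597), with no segment term (0.0630) and with counts summed per animal (0.115). The other 13 did not pass, among them Ddit3 (-0.43, adjusted p = 0.137) and Trib3 (-1.28, adjusted p = 0.708), 2 known ATF4 targets named here after their values were seen.

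The searched core stood in the windows of 7 of the 16 integrated stress response genes and 5 of the 13 tRNA synthetases that had one. The 3 stress response genes called lower each had a match, in the TTNCATCA orientation and so opposite to Pycr1 and Asns, and it is shown in capitals with its flanking bases for comparison with those promoters (GRCm38.p6):

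Nupr1 (chr7:126625562-126625591, minus strand): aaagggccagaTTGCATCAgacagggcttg

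Chac1 (chr2:119351038-119351067, plus strand): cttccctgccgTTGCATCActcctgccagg

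Herpud1 (chr8:94386306-94386335, plus strand): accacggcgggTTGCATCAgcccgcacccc

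These matches began 110, 193 and 112 bases before the start. The windows of Atf3, Trib3 and Vldlr of the same list and of the synthetase genes Aars, Gars, Iars, Tars and Yars also held a match and these genes were not called, and that of Fgf21 held a match with counts too low to test. A match was thus found in genes that fell and in genes that did not pass.

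The list of eIF2 kinases and phosphatase subunits held 8 genes, of which Eif2s1, Impact and Gcn1l1 are neither. Of these 8, edgeR and DESeq2 each called 1 lower and 1 higher, and limma-voom called 0. Over all genes, edgeR called 3.23% lower and 1.80% higher. Eif2ak3, which encodes the kinase PERK, was at 13.3 to 22.5 CPM in GFPiSMC and 6.63 to 14.2 CPM in Tgfbr1/2iSMCKO libraries (-0.78, SE 0.19, edgeR adjusted p = 0.0286). Impact, an inhibitor of the kinase GCN2, was at 120.9 to 202.5 and 185.9 to 272.4 CPM (0.51, SE 0.14, adjusted p = 0.0479). Both overlapped between genotypes and lost their call without any 1 animal except Tgfbr1/2iSMCKO animal 3, with adjusted p of 0.0635 to 0.165 for Eif2ak3 and 0.0582 to 0.202 for Impact. Over all 18 other settings Eif2ak3 kept its call in 7 (adjusted p up to 0.207) and Impact in 8 (up to 0.202), and limma-voom gave 0.0551 and 0.0710. The reference genes Col1a1 (-1.45), Col1a2 (-1.72), Col3a1 (-2.32) and Eln (-4.12) all fell, with edgeR adjusted p from 1.50e-09 to 0.000289.

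Markers of isolation stress and of other cells were measured in the same libraries. Of 12 immediate early genes, which respond to tissue digestion, edgeR and limma-voom called 0 and DESeq2 called 4 lower, with 5 at an unadjusted p under 0.05 in edgeR and Egr1 (-0.89, adjusted p = 0.0582) and Egr2 (-1.86, adjusted p = 0.0683) having the smallest p. Their summed level was 580 to 2004 CPM in GFPiSMC and 495 to 1810 CPM in Tgfbr1/2iSMCKO libraries, lowest in both segments of animal 3 of each genotype. Of the SMC and macrophage markers edgeR called 0, with 2 of each list at an unadjusted p under 0.05, DESeq2 called 0, and limma-voom called 1 SMC marker lower. The smallest p in edgeR were those of Tagln (-0.32, adjusted p = 0.0699) and Acta2 (-0.23, adjusted p = 0.264) among SMC markers and of Cd14 (0.96, adjusted p = 0.196) and Cd68 (1.77, adjusted p = 0.291) among macrophage markers. Serpinf1 of the fibroblast markers (-1.58, adjusted p = 0.00646) and Erg of the endothelial markers (-1.13, adjusted p = 0.00652) fell, and Cdh5 was higher (2.97, adjusted p = 0.0250) with 0 to 14 counts per GFPiSMC and 12 to 79 per Tgfbr1/2iSMCKO library. Erg kept its call in 15 of 18 other settings, losing it without GFPiSMC animal 1 or 2 (adjusted p = 0.0540 and 0.05003) and with counts summed per animal (0.0847). Cdh5 kept its call in 11 of 17, losing it by limma-voom (0.0794), with the replicate block (0.0505) and without GFPiSMC animal 2 or 3 or Tgfbr1/2iSMCKO animal 1 or 2 (adjusted p = 0.0656 to 0.1199). Their part in the levels of the 10 genes was not tested.

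**Figure D4:**
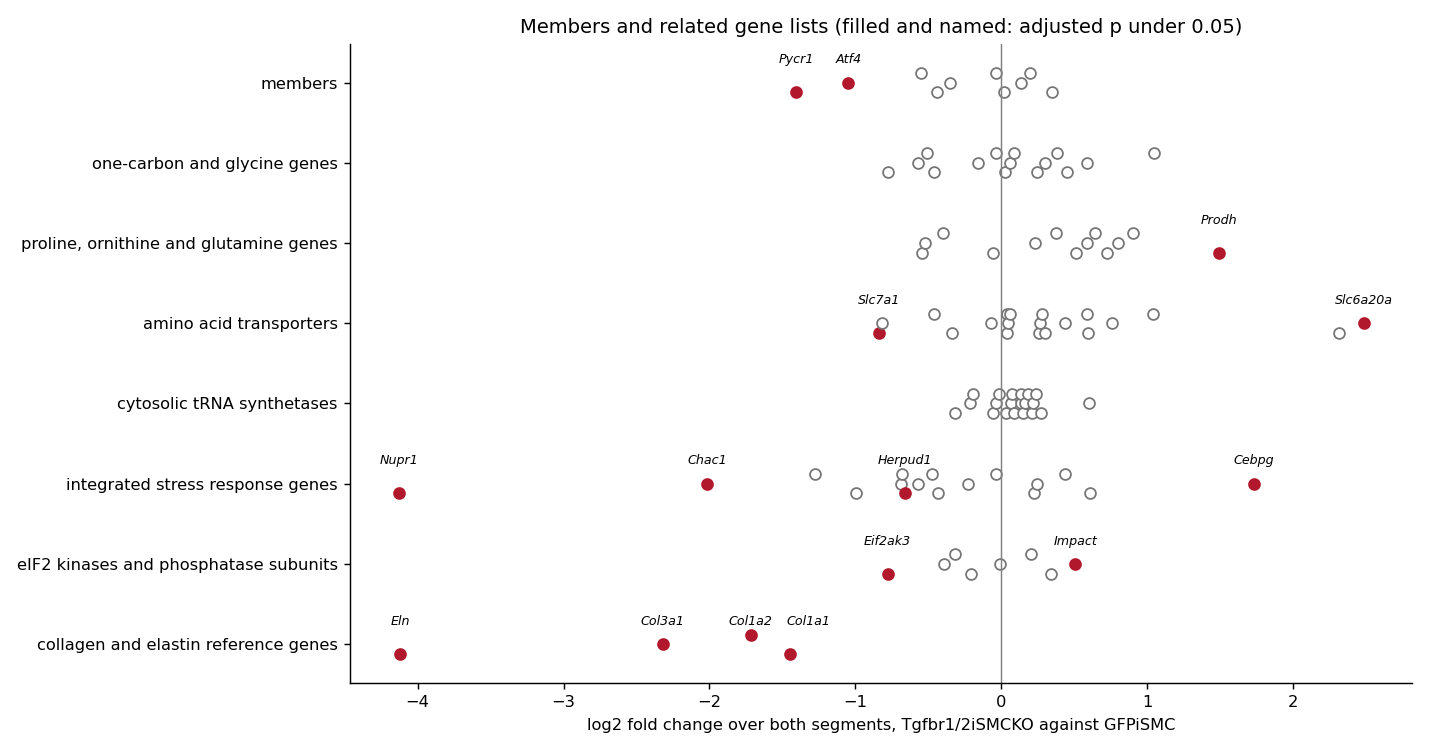
Log2 fold change of Tgfbr1/2iSMCKO against GFPiSMC over both segments (horizontal axis) for each tested gene of the members and of 7 related lists (rows), each point being 1 gene, filled and named where edgeR's adjusted p was under 0.05. Pycr1 and Atf4 are the 2 called members, and Nupr1 lies farthest to the left of the stress response genes at -4.13.

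The amino acids that the mRNA pool encodes were also compared, since the members supply 3 of them. For each library, the length-scaled level of each of 21472 coding genes was multiplied by the residues in its longest coding sequence and summed. Glycine made up 6.82% to 6.92% of encoded residues in GFPiSMC libraries and 6.65% to 6.70% in Tgfbr1/2iSMCKO libraries, and the lowest GFPiSMC value was that of descending animal 3. Per animal the share was 6.89% ± 0.0279 in GFPiSMC and 6.68% ± 0.0172 in Tgfbr1/2iSMCKO (SD, n = 3), a difference of -0.20 percentage points with no overlap between animals (exact two-sided permutation p = 0.1, the smallest that 3 against 3 allows). Proline went from 5.67% ± 0.0354 to 5.56% ± 0.0497 (difference -0.11 points, exact permutation p = 0.1), and serine from 7.31% ± 0.0110 to 7.36% ± 0.0272 (difference 0.05 points, exact permutation p = 0.1), both without overlap of animals.

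Collagen genes encoded 1.12% to 1.32% of all residues in GFPiSMC and 0.518% to 0.580% in Tgfbr1/2iSMCKO libraries, and glycine makes up 26.8% of the encoded Col1a1 residues and 36.3% of those of Eln. With collagen genes left out but Eln kept, the glycine difference was -0.077 points, still without overlap of animals. The proline difference was then -0.029 points with animals overlapping (exact permutation p = 0.5). Eln itself fell from a mean of 160.5 to 9.31 RPKM, and its part in the remaining glycine difference was not tested. The measure describes what the mRNA pool encodes and not how much protein was made.

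**Figure D5:**
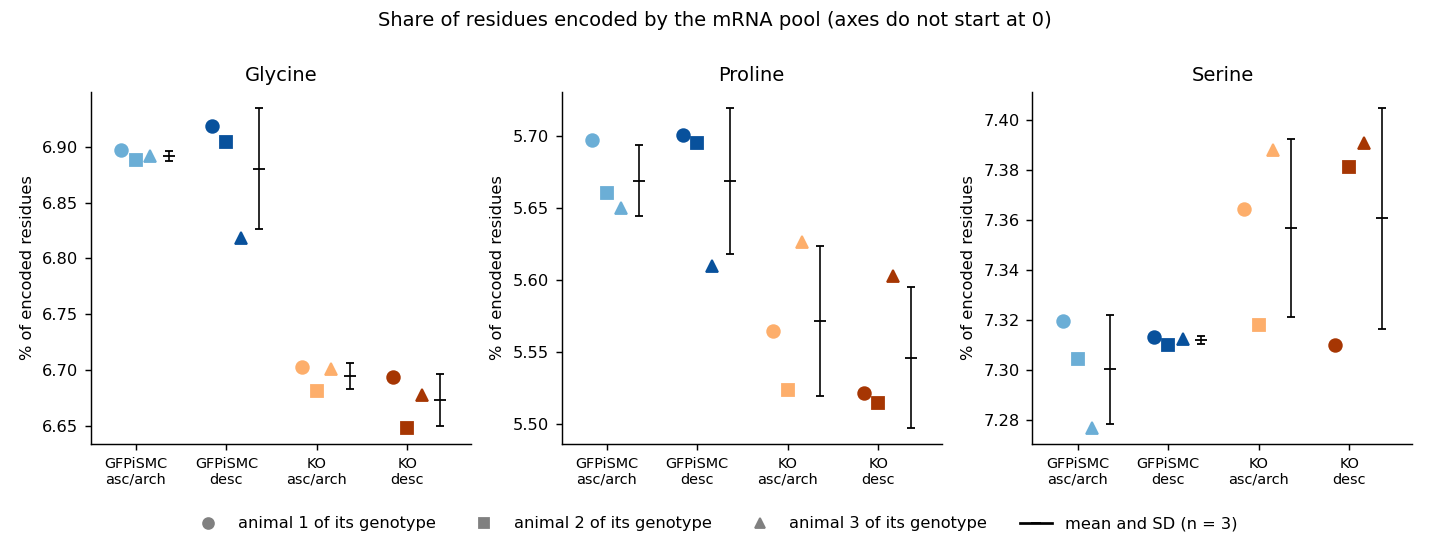
Percent of encoded residues that are glycine, proline or serine in each of the 12 libraries, by group, with a symbol for each animal and a bar for the mean and SD of 3 libraries; the vertical axes do not start at 0. All Tgfbr1/2iSMCKO (KO) libraries lie at or below 6.70% glycine and all GFPiSMC libraries at or above 6.82%.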

How the data were processed

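RNA of GFP+ SMCs was sequenced by the study from 12 aortic segments of 6 mice. The submitters' processing notes name HISAT2, StringTie, DESeq2 and mm10, and StringTie estimates gene counts from coverage. The deposited counts, not normalized by the authors, were used as they stand. The members and gene lists were chosen with earlier results of these data known. Symbols, places and exon lengths came from GENCODE M21 (GRCm38). Genes were filtered (filterByExpr), scaled (TMM) and tested with edgeR 4.0.16 quasi-likelihood fits in R 4.3.3, with segment as a term or with 4 group means, and called at a Benjamini-Hochberg adjusted p under 0.05. DESeq2 1.42.0, limma-voom (limma 3.58.1) with a random effect per animal, other scalings and filters, blocks by replicate number and each animal left out were alternatives. Named list genes were those called over both segments, at most 6 per list, or the 2 with the smallest p. Copies were sought with blastn 2.17.0. Fits were tested on simulated data. Both segments of an animal carry 1 animal number, which pairs segments within a genotype, whereas across genotypes the labels give equal numbers no further link. Nothing in the labels says which replicates are littermates. Residue shares were compared over animals by exact permutation.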

Additional observations from a re-analysis of the deposited data

How the results depend on the processing

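Over both segments Pycr1 and Atf4 stayed called under all 18 alternatives, the block by replicate number included (-1.42, adjusted p = 0.00249, and -1.08, adjusted p = 0.00119), with 3 members called without Tgfbr1/2iSMCKO replicate 3. Over all genes 1123 were called, against 2034 by DESeq2, 2721 with sorted cells as a term, 451 with counts summed per animal, and 622 to 1066 without 1 animal. The ascending/arch count of 1 became 0 with the replicate block, 2 by DESeq2 and with sorted cells as a term, and 0 to 1 without 1 animal. The descending count of 2 became 0 with library size only and with the segment fitted alone, 1 with no filter, with the replicate block and with GC offsets, and 0 to 2 without 1 animal. Over 9210 genes, deviations of same-numbered libraries of the 2 genotypes had r from -0.53 to 0.22. For segments of 1 animal r was -0.24 to 0.66, so these r do not settle whether equal numbers share something. Atf3 was highest in animal 2, and the summed immediate early genes lowest in animal 3, in both segments of both genotypes. What an equal number stands for across genotypes is not given by the labels. No member was called for genotype by segment or between segments under any alternative run. Some members without a call changed direction: Asns (0.11 with library size only, 0.0089 with a mean of at least 50 counts, 0.015 summed per animal, 0.081 by limma-voom, 0.068 with sorted cells, 0.00045 with GC offsets), Phgdh (-0.12 with the replicate block, -0.015 by limma-voom) and Shmt2 (-0.010 by limma-voom). Without 1 animal the ranges were -0.88 to 0.72 for Phgdh, -0.12 to 0.25 for Psat1, -0.31 to 0.35 for Shmt2, -0.14 to 0.11 for Asns and -0.0021 to 0.20 for Tgfbr1. With collagen genes left out but Eln kept, the residue differences were -0.0773 for glycine and -0.0290 for proline. The fits with sorted cells and with GC offsets were chosen after seeing the data, and the cause of these changes was not tested.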
